A study of Mus musculus with 12 samples.

Results

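The carriers that move bile acids and the other constituents of bile across the membranes of hepatocytes and bile duct cells were followed in RNA from sorted mouse liver cells. The members were 10 genes chosen by name (Slc10a1, Slco1b2, Abcb11, Abcb4, Abcc2, Abcc3, Abcc4, Slc51a, Slc51b and Slc10a2), and all 10 had a row among the 53599 genes of the count table. Of these, 9 passed the filter on low counts. Slc51a did not and is described by its counts only.

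All 12 libraries came from livers labelled WT, with AAV8-TBG-Cre given 1 week before a diet with 0.1% DDC was started, and with cells taken after 8 weeks. AAV8-TBG-Cre is a virus whose TBG promoter drives Cre recombinase in hepatocytes, which the labels use to trace that lineage. The reporter allele behind EGFP is not described in them. DDC is a compound that injures bile ducts. The early group (Rep_early) was EGFP+ Cd24- Epcam-, the intermediate group (Rep_intermed) EGFP+ Cd24+ Epcam-, the full group (Rep_full) EGFP+ Cd24+ Epcam+, and the group labelled BEC, an abbreviation the labels do not spell out, EGFP- Epcam+, with 3 libraries each. Every group had received both the virus and the diet, so uninjured cells were not compared. Strain, sex, age and the number of animals behind a library are not given in the sources used here, and p-values therefore measure only the spread between these libraries. Total counts ranged from 15112893 to 19731887 per library.

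Hepatocytes take bile acids up from blood through carriers on the basolateral membrane and export them, with phospholipid and conjugated organic anions, into the canaliculus, the narrow space between hepatocytes that drains into the ducts. Carriers of a further set on the basolateral membrane return bile acids to blood and are known to matter when bile flow is obstructed. Bile duct cells take part of the bile acids back from the duct lumen through an apical carrier. Fxr, the bile acid receptor encoded by Nr1h4, pairs with a retinoid X receptor and is known to bind inverted repeats of a hexamer in the promoters of several carriers.

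Promoter sequences of 4 members are shown because 3 of them (Abcb11, Slco1b2 and Slc10a1) had nearly the same profile across the groups, whereas Slc10a2 kept most of its level. The 250 bases before the annotated start are given 5′ to 3′ on the gene's strand, from RefSeq on GRCm38.p6, at chr2:69342617-69342866 (minus strand) for Abcb11, chr6:141629268-141629517 (plus strand) for Slco1b2, chr12:80968706-80968955 (minus strand) for Slc10a1 and chr8:5105288-5105537 (minus strand) for Slc10a2. Capitals mark matches, on either strand and with at most 2 mismatches in 12 fixed letters, to one of 3 motifs. IR-1 is AGGTCA, any base N and the reverse complement of AGGTCA. DR-1 is AGGTCA, N and AGGTCA again, and so shares a half-site with IR-1. The HNF1 motif is GTTAAT, N and its reverse complement.
Abcb11: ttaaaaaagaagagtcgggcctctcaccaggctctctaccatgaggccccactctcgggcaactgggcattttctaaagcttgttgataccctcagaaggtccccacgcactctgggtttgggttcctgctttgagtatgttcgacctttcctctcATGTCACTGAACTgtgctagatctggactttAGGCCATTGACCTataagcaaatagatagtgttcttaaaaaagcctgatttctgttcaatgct
Slco1b2: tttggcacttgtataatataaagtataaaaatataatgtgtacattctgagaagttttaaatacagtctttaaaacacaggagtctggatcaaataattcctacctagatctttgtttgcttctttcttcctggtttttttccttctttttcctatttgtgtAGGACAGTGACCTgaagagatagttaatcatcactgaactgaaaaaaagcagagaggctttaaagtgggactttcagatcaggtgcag
Slc10a1: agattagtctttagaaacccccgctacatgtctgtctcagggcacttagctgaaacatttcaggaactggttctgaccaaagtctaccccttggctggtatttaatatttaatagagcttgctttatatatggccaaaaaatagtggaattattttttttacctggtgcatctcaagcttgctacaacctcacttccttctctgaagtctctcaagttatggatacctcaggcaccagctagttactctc
Slc10a2: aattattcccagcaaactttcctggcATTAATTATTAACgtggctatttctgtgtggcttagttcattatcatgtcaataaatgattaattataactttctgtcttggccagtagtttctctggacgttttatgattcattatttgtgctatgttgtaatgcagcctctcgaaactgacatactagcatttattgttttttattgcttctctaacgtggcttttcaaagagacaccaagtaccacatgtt

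Abcb11 had 2 IR-1 matches, beginning 63 and 94 bases before the start with 1 and 2 mismatches, and Slco1b2 had 1, beginning 88 bases before the start with 1 mismatch. Of 32851 promoter windows of this length, 0.959% held such a match. Slc10a1 had none of the 3 motifs in the window printed. Slc10a1 and Abcc4 have 2 annotated starts each, and only the more upstream window is described here. Slc10a2 had an HNF1 match beginning 224 bases before the start with 1 mismatch, and Abcc2, whose window is not printed, had another with 2 mismatches beginning 75 bases before the start. HNF1 matches were found in 1.24% of the windows and DR-1 matches in 3.24%, the latter in none of the 9 members with a window. These matches are descriptions of sequence, not of binding.

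Marker genes of the cell types were read in each group. The summed level of 10 hepatocyte markers, in CPM (counts scaled to a common library size with TMM factors), was 98131 to 102027 in early, 15384 to 19963 in intermediate, 3366 to 4423 in full and 2026 to 2683 in BEC, and none of the 10 was at 0 in any group. All 10 were lower at the first 2 steps below. The 10 biliary markers summed to 953 to 1911, 9635 to 12604, 12623 to 15978 and 15009 to 18898 CPM. Most of each sum was Spp1 (1236, 9855, 11303 and 12131 CPM on average). Epcam and Cd24a, also in the list, encode surface proteins used in the sort, Cd24 in the EGFP+ groups only. The keratin genes did not follow that sum, with Krt19 at 0.111, 2.21, 118 and 592 CPM and Krt7 at 0.303, 3.44, 172 and 387 CPM from early to BEC. Markers of macrophages summed to at most 163 CPM, of endothelial cells to at most 27.2 CPM, and of neutrophils, B cells and T and NK cells to under 1 CPM. In the macrophage and in the stellate cell and fibroblast lists, 1 gene made up most of the later sums, Csf1r at 127 CPM in BEC and Rgs5 at 3182 CPM in full. In early the stellate cell and fibroblast list summed to 128 to 322 CPM, from Reln (71.4 CPM on average), Col3a1 (61.0), Rgs5 (40.9), Col1a1 (40.9), Dcn (20.4) and less of others. In full Reln, Col3a1, Col1a1 and Dcn had 21.6, 11.52, 16.7 and 5.17 CPM, and in BEC 8.96, 25.9, 19.4 and 8.63 CPM. Of this list 1 gene was called lower at each of the first 2 steps. The part of such cells in the carriers' levels was not tested. Erythroid markers summed to 18.7 to 32.9 CPM in early and to at most 3.17 CPM elsewhere, most of it Alas2 (24.3 CPM in early), while each globin gene of the list had at most 3 counts in any library. The mitochondrial share of counts also moved with the groups, at 5.45% to 11.4% (highest in replicate 2) in early, 3.99% to 4.75% in intermediate, 2.20% to 2.48% in full and 2.58% to 3.43% in BEC, and its part in the results was not tested.

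At the first step, intermediate against early, 7 of the 9 members tested were lower, 0 were higher and 2 were not called (6 lower and 1 higher with total counts, and 8 lower with DESeq2, median-of-ratios factors or the replicate block). Of all 16210 genes tested, 54.4% were called, 25.7% as lower and 28.7% as higher. The median log2 fold change was -1.44 over the members tested and 0.06 over all genes. At the second step, full against intermediate, 7 members were lower and 1 was higher, where 40.7% of all genes were called, 19.8% as lower and 20.8% as higher (median -1.25 over the members, 0.01 over all genes). The split was 6 lower and 1 higher with median-of-ratios factors, total counts, either other filter, the replicate block or only these 2 groups. Between BEC and full 3 of the 9 were called, all lower, against 21.3% of all genes called and 10.6% lower (median -0.31 over the members). With the replicate number as a block 5 were called lower in that comparison, and likewise 5 without early replicate 1. Of all 16210 genes, 4096 and 3830 were then called, against 3445 in the main fit. BEC against early, the largest distance, gave 8 lower members, where 73.0% of all genes were called and 33.0% were lower. Tested for any difference among the 4 groups, all 9 were called, including Abcc4 and Slc10a2 (edgeR adjusted p 0.0144 and 0.00401), as were 75.6% of all genes. In bulk RNA, fewer cells with a transcript cannot be told apart from less transcript per cell. The 4 comparisons share libraries and are not independent of each other.

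**Figure D1:**
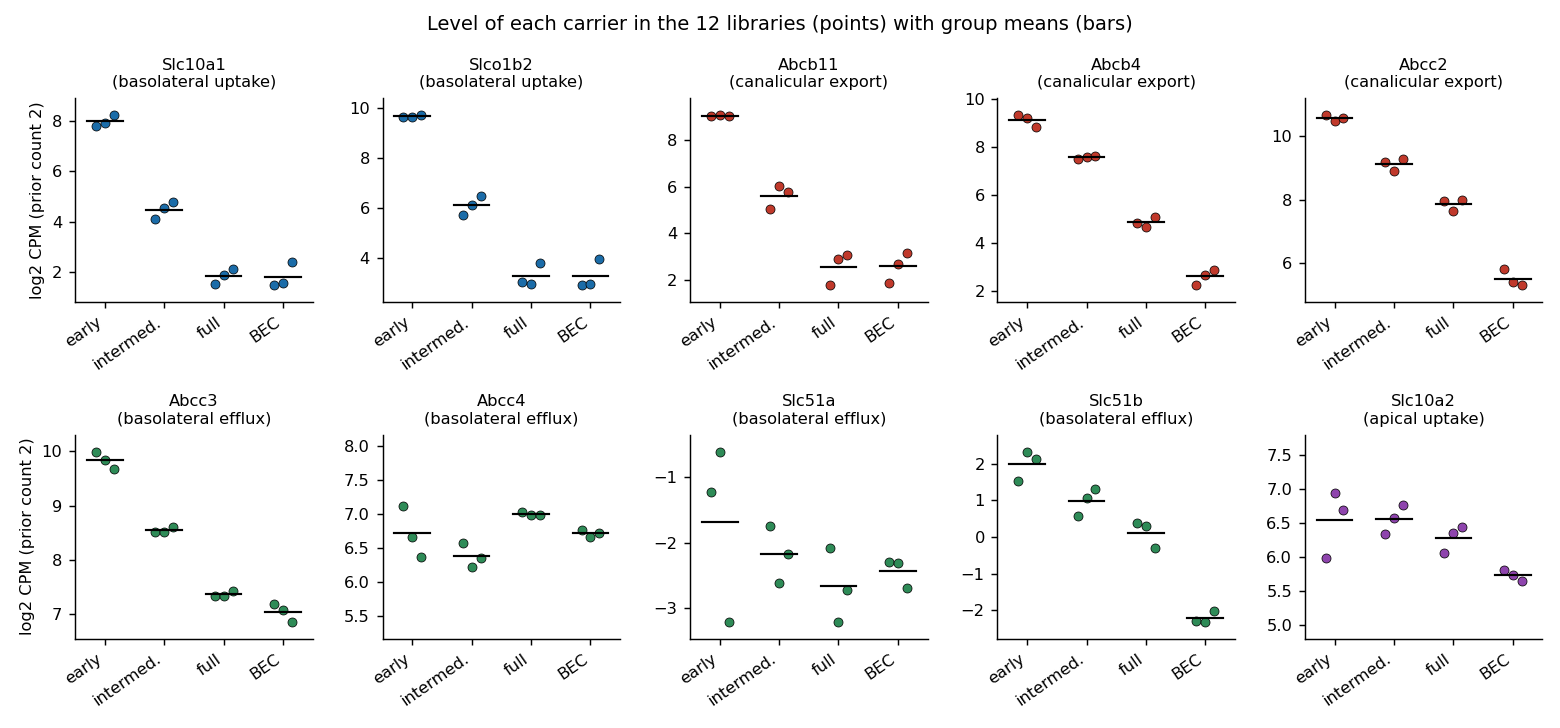
Level of each of the 10 carriers in log2 CPM (prior count of 2, vertical axis, whose range differs between panels) in the 12 libraries, by sorted group. Points are libraries and bars are group means. Slc10a1, Slco1b2 and Abcb11 are lowest in full and BEC, Abcb4, Abcc2 and Slc51b step down in each group, and Abcc4 and Slc10a2 lie between 50.4 and 138 CPM in all libraries.

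The basolateral uptake carriers fell at both steps from early to full. Slc10a1 encodes Ntcp, the sodium-dependent carrier that takes up conjugated bile acids. It was at 226, 246 and 307 CPM in the early libraries, at 17.1, 22.9 and 27.0 CPM in intermediate, at 2.72, 3.56 and 4.15 CPM in full, and at 2.65, 2.79 and 5.07 CPM in BEC. The first 3 groups did not overlap, while full and BEC did. Slc10a1 fell 11.6-fold at the first step (-3.54 on the log2 scale, SE 0.22, edgeR adjusted p 2.43e-08) and 6.43-fold at the second (-2.68, SE 0.24, edgeR adjusted p 1.55e-06). Between BEC and full no difference was detected (0.02, 95% interval -0.61 to 0.64, edgeR adjusted p 0.981).

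Slco1b2 encodes the main sodium-independent uptake carrier of mouse hepatocytes for bile acids and other organic anions. Its levels were 800.0, 793 and 849 CPM in early, 53.3, 70.0 and 90.8 CPM in intermediate, 8.25, 7.75 and 14.0 CPM in full, and 7.51, 7.73 and 15.7 CPM in BEC. As for Slc10a1, the first 3 groups were separate and full and BEC overlapped. It fell 11.4-fold and then 7.13-fold (-3.51 and -2.83 on the log2 scale, each with an SE of 0.29, edgeR adjusted p 2.93e-07 and 5.05e-06), with BEC against full at 0.05 (95% interval -0.63 to 0.72, edgeR adjusted p 0.948). Within a library, Slco1b2 counts were 2.18 to 3.53 times those of Slc10a1, a ratio whose group ranges overlapped (3.17 ± 0.385, 3.18 ± 0.158, 2.86 ± 0.620 and 2.90 ± 0.175 from early to BEC, SD, n = 3 each).

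The canalicular exporters did not share a single course. Abcb11 encodes Bsep, the pump that exports bile salts into the canaliculus. It was at 527, 545 and 535 CPM in early, at 32.8, 64.5 and 53.9 CPM in intermediate, at 3.32, 7.22 and 8.17 CPM in full, and at 3.56, 6.28 and 8.90 CPM in BEC. This was close to the course of the uptake carriers: a 10.6-fold fall at the first step (log2 fold change -3.41, SE 0.32, edgeR adjusted p 1.04e-06), an 8.10-fold fall at the second (-3.02, SE 0.34, edgeR adjusted p 1.01e-05), and 0.01 between BEC and full (95% interval -0.80 to 0.82, edgeR adjusted p 0.992). The 2 predicted genes on the opposite strand that overlap Abcb11 exons in GENCODE M21 had at most 9 counts in any library.

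Abcb4 encodes Mdr2, which moves phosphatidylcholine into bile and so protects the ducts from bile salts. Its levels were 649, 599 and 457 CPM in early, 183, 194 and 198 CPM in intermediate, 28.8, 25.3 and 33.6 CPM in full, and 4.67, 6.33 and 7.30 CPM in BEC. None of the 4 groups overlapped with another. The fall was 2.96-fold at the first step (-1.57 on the log2 scale, SE 0.16, edgeR adjusted p 1.66e-06) and 6.56-fold at the second (-2.71, SE 0.16, edgeR adjusted p 7.73e-08), and BEC stood 4.78-fold below full (-2.26, SE 0.17, edgeR adjusted p 8.11e-07). Abcb4 has close relatives in Abcb1a and Abcb1b, and how reads that match several genes were counted is not stated.

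Abcc2 encodes Mrp2, the canalicular pump for bilirubin glucuronides, glutathione conjugates and divalent bile salts. It was at 1622, 1427 and 1516 CPM in early, at 582, 481 and 624 CPM in intermediate, at 251, 199.9 and 257 CPM in full, and at 56.4, 43.0 and 40.0 CPM in BEC, again with 4 separate groups. It fell 2.71-fold (-1.44 on the log2 scale, SE 0.15, edgeR adjusted p 2.34e-06), then 2.38-fold (-1.25, SE 0.15, edgeR adjusted p 1.60e-05), and was 5.09-fold lower in BEC than in full (-2.35, SE 0.15, edgeR adjusted p 2.23e-07). The full group thus kept 15.5% of the early mean of Abcc2 and 5.14% of that of Abcb4, but 1.16% of that of Abcb11. In BEC the same values were 3.05%, 1.07% and 1.17%.

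**Figure D2:**
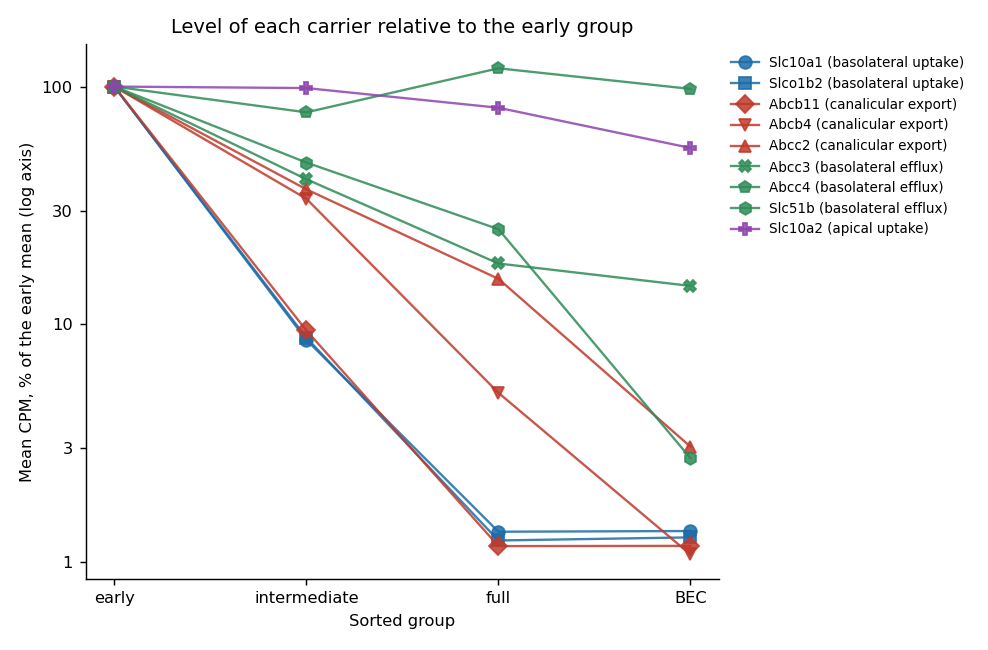
Mean CPM of 9 carriers in each sorted group as a percentage of the early mean (log axis), coloured by role, with Slc51a left out because of its low counts. Slc10a1, Slco1b2 and Abcb11 run together to between 1.16% and 1.34% in full, and Abcb4, Abcc2 and Slc51b stand higher in full than in BEC.

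The unequal course of the canalicular genes can be read without any scaling between libraries. Counts of Abcb4 were 0.854 to 1.23 times those of Abcb11 in early, 3.01 to 5.58 times in intermediate, 3.51 to 8.69 times in full, and 0.821 to 1.31 times in BEC. Counts of Abcc2 were 2.62 to 3.08 times those of Abcb11 in early, 7.45 to 17.7 times in intermediate, 27.7 to 75.8 times in full and 4.49 to 15.8 times in BEC. Both ratios were thus higher in every intermediate and full library than in every early library. In each of the 4 groups the highest value of both ratios came from replicate 1. These pairs were chosen after their values were seen, and no test was made.

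**Figure D3:**
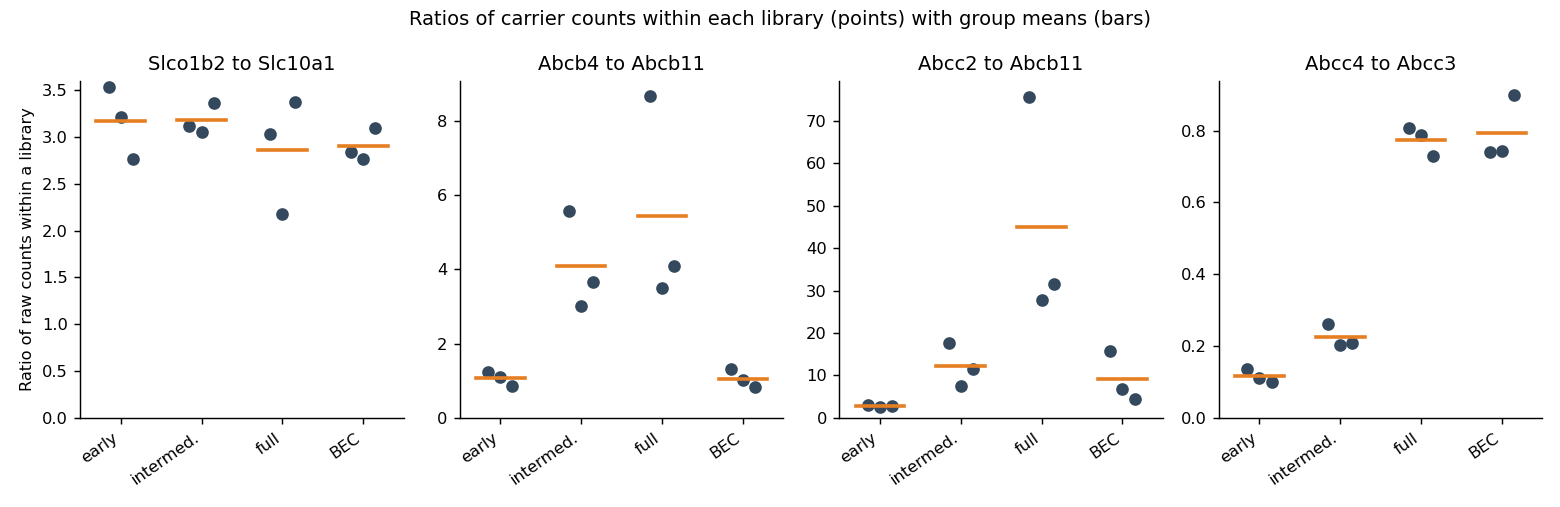
Ratios of raw counts of 2 carriers within a library (vertical axis, from 0) for the 12 libraries by sorted group. Points are libraries and bars are group means. Slco1b2 to Slc10a1 overlaps across the groups, Abcb4 to Abcb11 is above early in every intermediate and full library, with these 2 groups overlapping, Abcc2 to Abcb11 is above all other groups in every full library, and Abcc4 to Abcc3 is 0.775 in full against 0.115 in early on average.

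Hepatocyte markers were also low in full and BEC, to unequal degrees. Of the 10, Cps1, a urea cycle enzyme, stood at 1.26% of its early mean in full and 1.28% in BEC, Asgr1 at 0.939% and 1.10%, Cyp2e1 at 1.03% and 1.27%, and Apoa1 at 1.10% and 0.931%. The others were higher in full, from 2.72% (F2) and 3.51% (Alb) through 8.67% (Ttr) and 9.21% (Tat) to 16.4% (Hnf4a) and 17.9% (Serpina1c). In BEC these 6 ran from 1.05% (F2) to 11.4% (Hnf4a). Slc10a1, Slco1b2 and Abcb11 were thus near the 4 lowest markers and below the other 6 in full. The ratio of Slc10a1 to Cps1 counts was 0.0465 ± 0.00580 (SD, n = 3, as for the values that follow) in early and 0.0433 ± 0.00893, 0.0517 ± 0.0112 and 0.0527 ± 0.0158 in the later groups. That of Abcb11 to Cps1 was 0.0979 ± 0.0227, 0.0949 ± 0.0117, 0.0872 ± 0.0174 and 0.0901 ± 0.0125. Both ratios overlapped among all 4 groups. The ratio of Abcc2 to Cps1, by contrast, went from 0.281 ± 0.0852 in early to 1.17 ± 0.564, 3.73 ± 1.77 and 0.843 ± 0.603. It was higher in every full library than in any other, but BEC (0.341 to 1.51) overlapped early (0.223 to 0.379). In BEC, replicate 3 was highest for Cps1 (117 CPM against 37.3 and 63.4) and also for Slc10a1, Slco1b2, Abcb11 and Abcb4, while it was lowest for Abcc2 and Abcc3. What part hepatocyte RNA in the sorted libraries has in these low levels was not tested. Cps1 was chosen for this ratio after values were seen.

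The basolateral efflux carriers differed among themselves. Abcc3 encodes Mrp3, which exports glucuronides and bile acids to blood and is made by bile duct cells as well as hepatocytes. It was at 1022, 913 and 817 CPM in early, 364, 366 and 391 CPM in intermediate, 162, 161 and 173 CPM in full, and 146, 136 and 116 CPM in BEC. It fell 2.45-fold (-1.30 on the log2 scale, SE 0.11, edgeR adjusted p 3.44e-07) and then 2.26-fold (-1.18, SE 0.11, edgeR adjusted p 1.89e-06). BEC lay below full in every library, but the difference was not called (-0.31, 95% interval -0.56 to -0.06, edgeR adjusted p 0.0553). The replicate block turned this into a call (-0.32, edgeR adjusted p 0.031), as did leaving out early replicate 1, early replicate 3 or BEC replicate 1 (edgeR adjusted p 0.0336, 0.0416 and 0.0308). It was also called with DESeq2 (adjusted p 0.0348), with only these 2 groups in the fit, with total counts and without a filter on low counts (edgeR adjusted p 0.0377, 0.0427 and 0.0493). BEC kept 14.5% of the early mean, the third highest share among the members tested, after Abcc4 and Slc10a2.

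Abcc4 encodes Mrp4, which exports bile acids together with glutathione as well as nucleotides and conjugated steroids. It was at 138, 101 and 82.4 CPM in early, 94.9, 73.9 and 81.4 CPM in intermediate, 131, 127 and 126 CPM in full, and 109, 101 and 105 CPM in BEC. It was the only member called higher at either step (with total counts Slc10a2 was too, at the first), rising 1.53-fold from intermediate to full (log2 fold change 0.62, SE 0.15, edgeR adjusted p 0.00461), with no overlap. Early overlapped with each other group. Against early, intermediate was at -0.36 (95% interval -0.71 to -0.02, edgeR adjusted p 0.0566), which was called as lower with the replicate block (-0.35, edgeR adjusted p 0.0219) but turned to 0.31 when libraries were scaled by total counts (edgeR adjusted p 0.0742). It was also called lower with DESeq2 (-0.42, adjusted p 0.0259), with median-of-ratios factors (-0.42, edgeR adjusted p 0.0324), with a filter to a mean of 50 counts (-0.37, edgeR adjusted p 0.0472), without early replicate 3 (-0.52, edgeR adjusted p 0.0055) or intermediate replicate 1 (-0.46, edgeR adjusted p 0.0306). BEC against full was -0.29 (95% interval -0.63 to 0.05, edgeR adjusted p 0.213), and was called lower when only these 2 groups were fitted (edgeR adjusted p 0.0127). BEC against early was -0.03 (95% interval -0.38 to 0.31, edgeR adjusted p 0.853), 0.84 with total counts (edgeR adjusted p 0.000109) and 0.19 without early replicate 1 (edgeR adjusted p 0.143).

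The levels of Abcc3 and Abcc4 drew together across the groups. Counts of Abcc4 were 0.101 to 0.135 times those of Abcc3 in early, 0.202 to 0.261 times in intermediate, 0.730 to 0.807 times in full and 0.741 to 0.899 times in BEC. The first 3 groups were separate in this ratio, and full and BEC overlapped.

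Slc51a and Slc51b encode the subunits of Ost, a carrier that works only as a pair of both chains and lets bile acids out across the basolateral membrane. Slc51b had 35, 54 and 53 counts in the early libraries, 22, 36 and 42 in intermediate, 28, 25 and 16 in full, and 2, 2 and 3 in BEC. BEC stood apart, at or under 3 counts, the level treated as the floor. Means were 3.99 ± 1.10, 1.91 ± 0.50, 1.0 ± 0.264 and 0.109 ± 0.0245 CPM (SD, n = 3 each). The full group had 9.19 times the level of BEC by summed counts (69 against 7, 95% interval for counting error only 4.23 to 23.7), and the difference was called (edgeR adjusted p 0.000320). Intermediate was lower than early (log2 fold change -1.05, SE 0.33, edgeR adjusted p 0.0146), a call lost with total counts (-0.39, edgeR adjusted p 0.303), without early replicate 2 (-0.88, edgeR adjusted p 0.0597) or without intermediate replicate 1 (-0.87, edgeR adjusted p 0.0589). Full was lower than intermediate (-0.93, SE 0.34, edgeR adjusted p 0.0436), a call lost under most alternatives, among them the replicate block (-0.90, edgeR adjusted p 0.0504). It was also lost without any 1 of early replicate 3, intermediate replicates 2 and 3, the 3 full replicates or BEC replicates 2 and 3 (-1.07 to -0.73, edgeR adjusted p 0.0526 to 0.155).

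Slc51a had 4, 6 and 0 counts in early, 3, 1 and 2 in intermediate, 3, 0 and 1 in full, and 2, 2 and 1 in BEC. The partner subunit was thus near the floor in every group, including those in which Slc51b was counted. In GENCODE M21 Slc51a shares exon sequence with Pcyt1a, and Slc51b with Rasl12, each on the opposite strand. Since the strand setting of the counting is not stated, reads of such partners cannot be told apart with certainty. Pcyt1a was far more abundant than Slc51a and went down across the groups, with 158, 95.1, 59.4 and 46.1 CPM on average from early to BEC, while the summed Slc51a counts were 10, 6, 4 and 5. Rasl12 was at 0.342 CPM in early, 3.36 in intermediate, 3.53 in full and 1.0 in BEC, unlike Slc51b. What part such reads have in the counts of Slc51a and Slc51b was not tested.

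Slc10a2 encodes Asbt, the sodium-dependent carrier that bile duct cells and the ileum use to take bile acids up from the lumen. It was not restricted to the Epcam+ groups. Its levels were 63.3, 123 and 103 CPM in early, 81.2, 95.8 and 109 CPM in intermediate, 66.9, 81.9 and 87.3 CPM in full, and 56.1, 53.4 and 50.4 CPM in BEC. Replicate 1 was lowest in each EGFP+ group, and BEC was below every other library. Neither step was called (log2 fold change -0.02, 95% interval -0.46 to 0.42, edgeR adjusted p 0.946, and -0.28, 95% interval -0.71 to 0.16, edgeR adjusted p 0.274).

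BEC against full gave -0.56 for Slc10a2 (95% interval -1.0 to -0.12, edgeR adjusted p 0.0526). It was called as lower with the replicate block (-0.54, edgeR adjusted p 0.0163) or without early replicate 1, early replicate 2, intermediate replicate 1 or full replicate 1 (edgeR adjusted p 0.00474, 0.0298, 0.0479 and 0.0442), and also with DESeq2 (adjusted p 0.0366), with only these 2 groups or without a filter (edgeR adjusted p 0.00309 and 0.000494). BEC was lower than early by the TMM scale (-0.86, SE 0.19, edgeR adjusted p 0.00118), but not with total counts (0.01, edgeR adjusted p 0.972). Intermediate was called higher than early with total counts (0.64, edgeR adjusted p 0.0092). Within a library, Slc10a2 counts were 0.279 to 0.501 times those of Slc10a1 in early, 4.03 to 4.75 times in intermediate, 21.0 to 24.6 times in full and 9.95 to 21.2 times in BEC, so the order of these 2 sodium-dependent carriers was opposite in early and in the other groups.

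**Figure D4:**
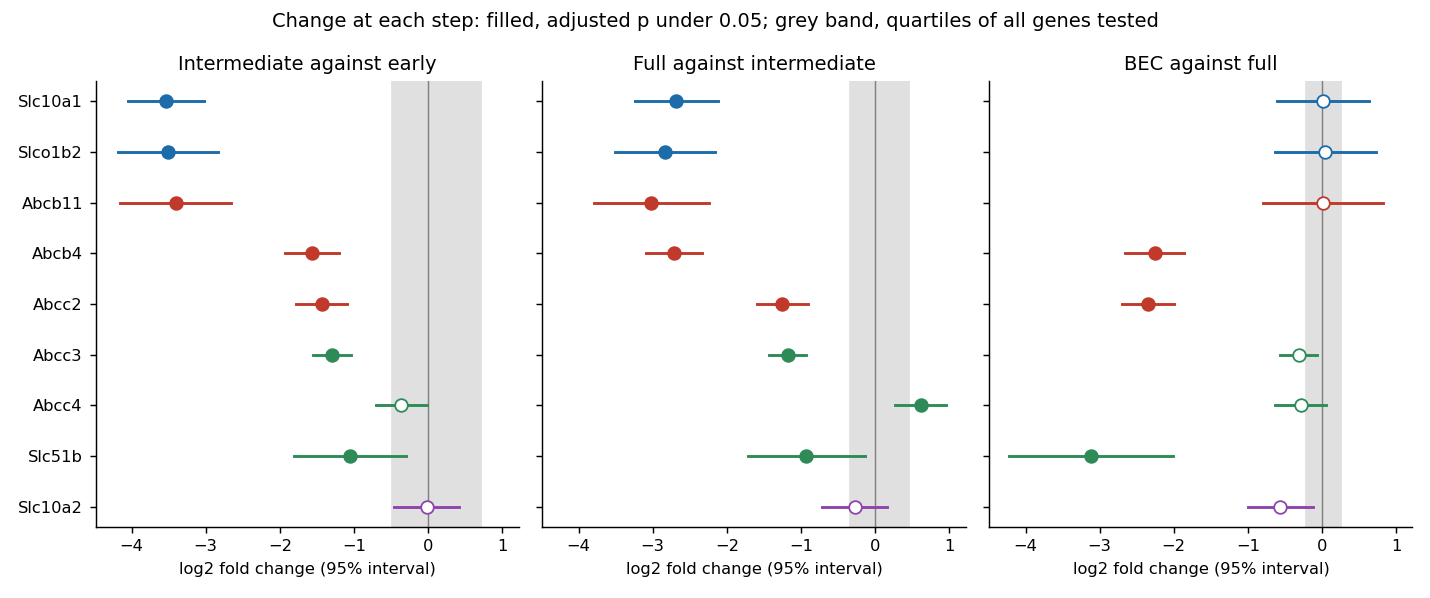
Log2 fold change of 9 carriers (horizontal axis, with approximate 95% intervals) at the 3 steps. Filled points had an adjusted p under 0.05, and grey bands span the lower and upper quartiles of all genes tested. At the first step 7 points are filled, all to the left. At the second 8 are filled, with Abcc4 to the right, and between BEC and full only Abcb4, Abcc2 and Slc51b are filled.

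Divided by the merged exon length in GENCODE M21, a different annotation from the counting, levels can be set side by side. In early, Abcc2 (178 ± 11.4 CPM per kilobase), Slco1b2 (165 ± 6.15) and Abcc3 (161 ± 17.9) led without differing beyond their spread, followed by Slc10a1 (118 ± 19.0) and Abcb11 (104 ± 1.79), which did not differ beyond theirs. Abcb4 had 60.6 ± 10.7, Slc10a2 23.3 ± 7.37, Abcc4 16.8 ± 4.45 and Slc51b 5.62 ± 1.55 CPM per kilobase (SD, n = 3 each). In full the order began with Abcc3 (29.0 ± 1.19) and Abcc2 (27.7 ± 3.70), which were within their spread, then Abcc4 (20.0 ± 0.375) and Slc10a2 (19.0 ± 2.54). In BEC, Abcc3 (23.3 ± 2.68), Abcc4 (16.4 ± 0.592) and Slc10a2 (12.8 ± 0.677 CPM per kilobase) led, ahead of Abcc2 (5.44 ± 1.02). The remaining members were at or under 2.09 CPM per kilobase in BEC. Among the members, those leading in BEC were thus the basolateral exporters Abcc3 and Abcc4 and the apical carrier Slc10a2.

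Other carriers of bile acids, organic anions and lipids came from a list of 23 genes, of which 21 were tested. At the first step 13 were lower and 4 higher (12 and 5 with total counts), where 25.7% of all genes were lower and 28.7% higher. At the second 10 were lower and 3 higher (10 and 5 with total counts or DESeq2), against 19.8% and 20.8% of all genes, and in BEC against full 8 lower and 3 higher, against 10.6% and 10.7%. Their medians were -1.11, -0.68 and -0.46. Abcg5 and Abcg8, whose products form the canalicular cholesterol exporter, fell from 80.1 ± 10.4 and 73.7 ± 8.91 CPM in early to 10.6 ± 2.53 and 15.3 ± 0.727 in intermediate and to 1.34 ± 0.0554 and 2.02 ± 0.677 in full. Slco1a4, an organic anion uptake carrier, fell from 103 ± 31.8 to 20.4 ± 4.10 and 3.16 ± 0.977 CPM, and Slc27a5, which joins bile acids to coenzyme A, from 455 ± 58.7 to 42.7 ± 3.08 and 4.99 ± 0.639 CPM.

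Atp8b1, the phospholipid flippase of the canalicular membrane, fell from 81.6 ± 3.27 to 37.8 ± 4.94 and 23.0 ± 0.813 CPM and was higher in BEC, at 46.7 ± 2.90 CPM (log2 fold change against full 1.03, SE 0.10, edgeR adjusted p 6.70e-06). Slco3a1, an organic anion carrier, rose at both steps, with 1.08 ± 0.268 CPM in the early, 70.6 ± 32.8 in the intermediate and 398 ± 22.6 in the full group (6.02, SE 0.35, and 2.50, SE 0.24, edgeR adjusted p 1.20e-08 and 2.44e-06). BEC, at 352 ± 36.7 CPM, did not differ from full beyond the spread (-0.18, SE 0.22, edgeR adjusted p 0.667). Abcc5, a relative of Abcc4, rose from 38.4 ± 9.22 to 128 ± 6.08 CPM at the first step. Slco1a1 was low throughout and was lowest in BEC, with 0, 2 and 3 counts (24.6 times more in full by summed counts, 95% interval for counting error only 10.3 to 77.0). Fabp6, the ileal bile acid binding protein, had 0 counts in all libraries.

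Of 17 bile acid sensors and regulators, 16 were tested, and 11 were lower and 3 higher at the first step (6 and 5 with total counts). At the second step 8 were lower and 2 higher (8 and 5 with total counts, 8 and 3 with DESeq2), and in BEC against full 8 lower and 3 higher. The shares of all genes called in these comparisons were 54.4%, 40.7% and 21.3%. Nr1h4, which encodes Fxr, fell at each step, from 225 ± 10.01 CPM in early to 124 ± 5.20, 54.0 ± 7.48 and 28.9 ± 2.41 CPM (log2 fold changes -0.86, -1.20 and -0.90, edgeR adjusted p 7.80e-06, 1.03e-06 and 2.83e-05). The call at the first step was lost with total counts (-0.20, edgeR adjusted p 0.0857). Nr0b2, a repressor that Fxr is known to induce, had 24.4 ± 6.83, 15.5 ± 4.36, 10.8 ± 2.74 and 3.52 ± 0.786 CPM. Its difference at the first step was -0.65 (edgeR adjusted p 0.0431) and 0.02 with total counts (edgeR adjusted p 0.962). That call was also lost without any 1 of early replicate 1, intermediate replicates 2 and 3, full replicate 2 or BEC replicate 3 (-0.69 to -0.40, edgeR adjusted p 0.0518 to 0.215). At the second step Nr0b2 was not called (-0.52, edgeR adjusted p 0.124), and the replicate block made it a call (-0.52, edgeR adjusted p 0.0101). Between BEC and full it was lower (-1.62, SE 0.28, edgeR adjusted p 0.000731).

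Klb, the co-receptor for the ileal hormone that represses bile acid synthesis, was at 20.8 ± 2.96 CPM in full and 1.2 ± 0.0698 in BEC (log2 fold change -4.17, SE 0.17, edgeR adjusted p 7.06e-09). Vdr, a nuclear receptor that also senses lithocholic acid, had 0 counts in the early libraries and rose to 2.67 ± 1.26 CPM in full and 15.3 ± 3.48 CPM in BEC, at least 10.6-fold and 61.0-fold above the early floor of 3 counts per library. Gpbar1, the bile acid receptor of the cell surface, was below the filter, at 0.0146 CPM in full and 0.0155 in BEC on average. Hnf4a, a nuclear receptor that is also among the hepatocyte markers above, was lower at each step, but at the first not with total counts (-0.18, edgeR adjusted p 0.195, against -0.84).

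A list for trafficking and anchoring of canalicular proteins held 16 genes, since 1 of its 17 symbols, Nherf1, is another name of Slc9a3r1. All 16 had a row and were tested, with 6 higher and 6 lower at the first step (10 and 2 with total counts), 5 and 5 at the second (7 and 5 with total counts), and 3 higher and 4 lower in BEC against full, where 54.4%, 40.7% and 21.3% of all genes were called. At the second step the split was 2 higher and 5 lower when intermediate replicate 2, intermediate replicate 3 or full replicate 1 was left out. Ezr, which encodes the membrane linker ezrin, rose at each step, from 37.1 ± 6.99 CPM in early to 104 ± 7.16, 274 ± 25.8 and 528 ± 21.6 CPM, and Msn, its relative moesin, rose from 7.46 ± 3.73 to 102 ± 51.0 CPM at the first. Rdx, the radixin that anchors Mrp2 at the canaliculus, had 349, 331, 209 and 141 CPM on average and was lower in full than in intermediate (log2 fold change -0.66). Pdzk1, a scaffold for membrane carriers, fell from 31.6 ± 7.54 CPM in intermediate to 6.86 ± 1.67 in full and 1.11 ± 0.931 in BEC.

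**Figure D5:**
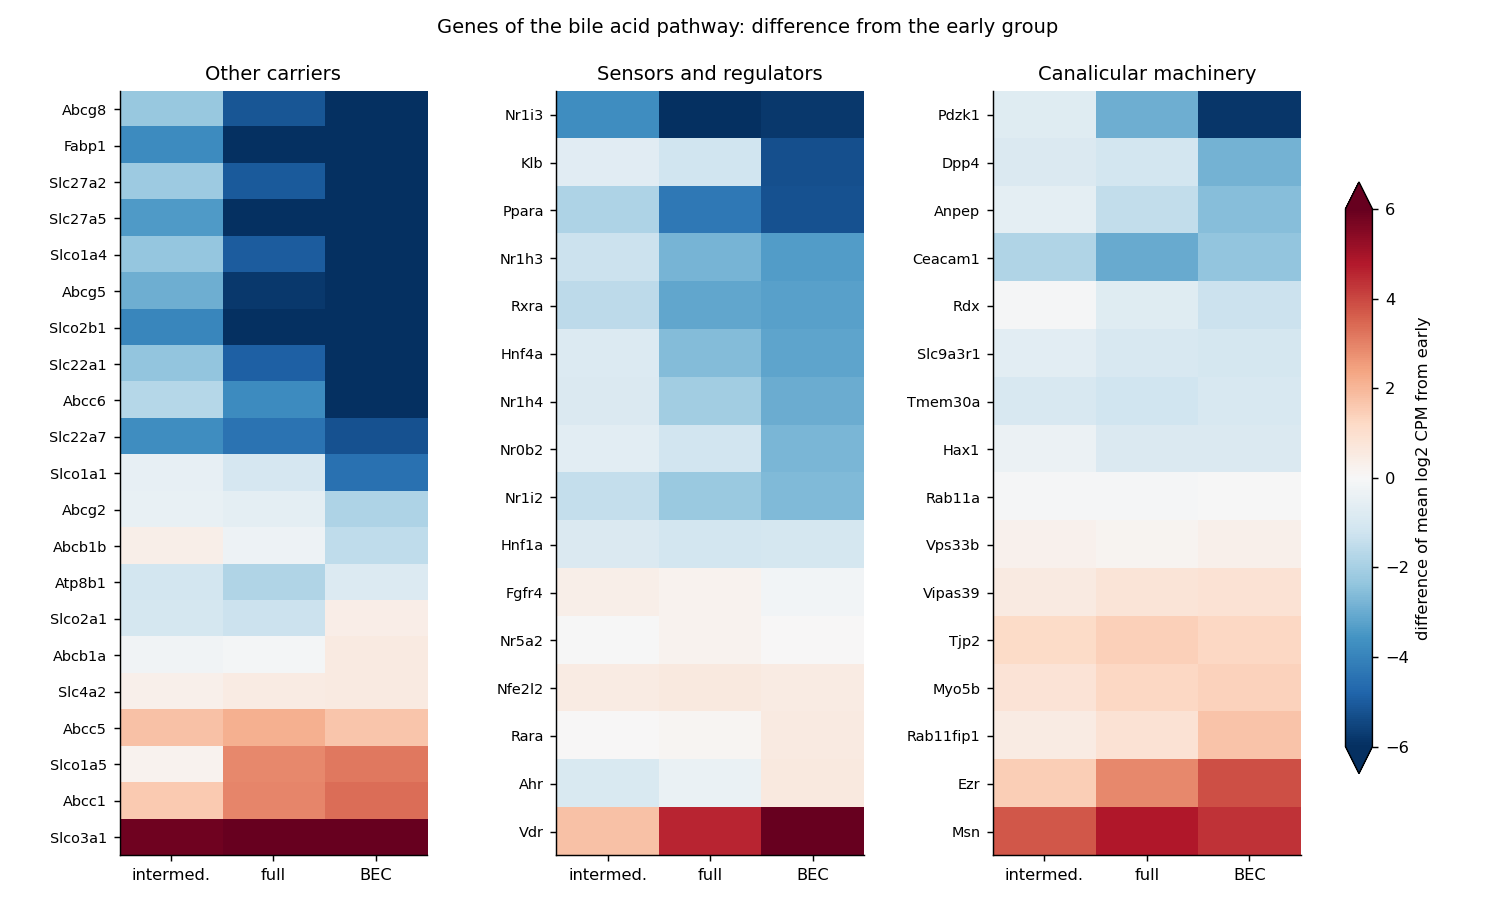
Difference of the mean log2 CPM (prior count of 2) of intermediate, full and BEC from early for the tested genes of the 3 lists, with red above and blue below early and the colour scale ending at 6 in each direction. Most other carriers are blue, Slco3a1, Abcc5, Ezr, Msn and Vdr are red, and the machinery is mixed.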

How the data were processed

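Total RNA was sequenced from 12 libraries of sorted liver cells. The authors deposited raw counts per gene symbol. The submitters' processing notes name STAR 2.7.10b, featureCounts 2.0.1, DESeq2 and the build GRCm39, without the annotation, strand setting or treatment of reads that match several genes. In the deposited table of normalized signal, each library equals its counts over a single size factor, as checked, and it was not tested.

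A filter by group (filterByExpr) left 16210 of 53599 genes, which were scaled by TMM factors and fitted in 1 model of all 12 libraries with a term per group. Contrasts used the quasi-likelihood test of edgeR (R 4.3.3, edgeR 4.0.16, limma 3.58.1), with Benjamini-Hochberg adjustment over the genes tested and calls at an adjusted p under 0.05. The SE is the absolute log2 fold change divided by the root of F, and the 95% intervals are approximate, from that SE and 8 residual degrees of freedom. Log2 CPM used a prior count of 2. A count of 3 was the floor, 0.128 to 0.273 CPM. Intervals from counts cover counting error only.

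The members, lists and tests were chosen with earlier results of these data known. All members were named. From the lists, 12 genes fixed by name (such as Nr1h4 and Abcg5) and up to 2 called genes of largest change in each direction, per list and step, could be named. Rdx was chosen for its role after its values were seen. Genes most like 4 members had the highest Pearson r. Python 3.11.15 and matplotlib 3.10.9 drew the figures. On simulated counts of 16210 genes for intermediate against early, 98.5% of 200 genes given a log2 change of 2 were recovered, and 4.37% of 206 calls were unchanged genes. There all groups were drawn from the intermediate means and the 200 genes changed up and down alike, whereas 54.4% of genes were called in the data. Those rates therefore do not measure the error of the real comparison or of its scaling.

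Same-numbered libraries deviated together in the 3 steps (r from 0.121 to 0.322 across genes), so the replicate number was used as a block in an alternative fit. The main fit had no such term, and its calls ignore any pairing. In BEC against early r ranged from 0.0442 to 0.145. Replicates differed beyond counting noise. Alternatives were DESeq2 1.42.0, other scaling, other filters, the block, fits of 2 groups and fits without 1 library.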

Additional observations from a re-analysis of the deposited data

How the results depend on the processing

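Over the comparisons and alternatives run, 620 of 680 values of single members kept their direction and their side of the threshold, and 21 changed sign. Of those that kept their sign, 23 gained a call and 16 lost one. Some of the 21 also gained or lost a call. The number of members called between BEC and full was 3. It was 5, all lower, without a filter on low counts, with the replicate block and with DESeq2. With only the 2 groups in the fit it was 6, all lower and with Abcc4 among them. Over the fits that left out 1 library it ran from 3 to 5, the highest without early replicate 1. Of all 16210 genes, 3445 were called in the main fit, 4096 with the block, 3825 with DESeq2 and 4064 with 2 groups only. Without a filter 3611 of 30230 genes were called. With total counts only, 1 member was called higher in intermediate than in early (Slc10a2) and 1 in BEC than in early (Abcc4). The replicate block changed, among the members, the calls given above for Abcc4, Slc51b, Abcc3 and Slc10a2 and no other.

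Scaling by total counts put the all-gene median at 0.72 (intermediate against early), 0.21 (full against intermediate) and 1.0 (BEC against early), and calls were higher in 85.6%, 72.5% and 80.2% of cases against 52.8%, 51.2% and 54.8%. Changes of sign are given for the members and the list genes that could be named by rule, not for other list genes such as Rdx. With total counts, intermediate against early changed sign among these for Abcb1a (0.45), Abcc4 (0.31), Nr0b2 (0.017), Slc10a2 (0.64) and Slco1a1 (0.17). BEC against early did so for Abcc4 (0.84), Atp8b1 (0.063) and Slc10a2 (0.0079). Other changes of sign among these genes were of values that were not called. Slc10a2 in intermediate against early was 0.029 without a filter, 0.0024 with the replicate block, and ranged from -0.25 to 0.20 without 1 library, with sign changes without early replicate 2, early replicate 3 or intermediate replicate 1. BEC against full for Abcb11 was -0.020 without a filter and -0.0018 with 2 groups only, and for Slc10a1 -0.015 without a filter and -0.0011 with the replicate block. Without 1 library it ranged from -0.34 to 0.29 (Abcb11), -0.35 to 0.18 (Slc10a1), -0.39 to 0.37 (Slco1b2), -0.31 to 0.42 (Slc27a5) and -0.043 to 0.65 (Slco2b1), each lowest without BEC replicate 3. Without full replicate 1 the first 3 were also below 0, as was Slco1b2 without full replicate 2. Abcb1a in full against intermediate was -0.034 and -0.029 without intermediate replicate 1 and full replicate 2, and up to 0.31 without another library. BEC against early for Abcc4 ranged from -0.19 to 0.19 without 1 library, highest without early replicate 1. The cause of these changes was not tested. The filter to a mean of 50 counts left Slc51b out. Among the members, Slc51a and Slc51b had the fewest counts, 25 and 318 over the 12 libraries.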

Other observations

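Over the 12 libraries, the 3 genes outside the members whose log2 CPM followed Slc10a1 most closely were Mat1a, Ass1 and Serpina3k (Pearson r 0.9983, 0.9983 and 0.9981, among 10655 candidate genes). Mat1a, the methionine adenosyltransferase of adult liver, had 3903 CPM in early and 447, 70.8 and 65.7 CPM in intermediate, full and BEC. For Abcb11 they were Cth, Cyp2a12 and Cyp2f2 (r 0.9985, 0.9978 and 0.9970), of which Cth, an enzyme of cysteine synthesis, had 369.9 CPM in early and 36.3, 4.99 and 4.69 CPM. For Slc10a2 the closest were Simc1, Pitpnm2 and Iqsec1 (r 0.9526, 0.9491 and 0.9450), and for Abcc4 they were Lrp5, Taok3 and H2-T10 (r 0.8431, 0.8345 and 0.8110). The libraries share group, depth and scaling, so these values are descriptions.

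The drug exporters Abcb1a and Abcb1b, close relatives of Abcb4 whose shared reads are uncertain, were called in opposite directions between full and BEC. Abcb1a was higher in BEC, at 64.7 ± 11.1 CPM against 41.4 ± 10.5 (log2 fold change 0.64, SE 0.20, edgeR adjusted p 0.0318). Abcb1b was lower, at 2.25 ± 1.05 CPM against 5.08 ± 0.610 (-1.17, SE 0.35, edgeR adjusted p 0.0298). The first call was lost without BEC replicate 2, BEC replicate 3 or full replicate 1 (0.45 to 0.60, edgeR adjusted p 0.0915 to 0.126), and the second without BEC replicate 1, BEC replicate 3, full replicate 2 or full replicate 3 (-1.14 to -0.88, edgeR adjusted p 0.0794 to 0.112).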
